A study of Mus musculus with 8 samples.

Results

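The comparison described here is that of Cebpb knockout with wildtype cells of the basal mammary gate, the lineage-negative CD24+CD29hi cells. It rests on 4 of the 8 arrays of the series, 2 per genotype, chosen by the genotype and the sorted subpopulation in the sample titles, and it covers every gene with a probe set of its own. The mice carried a germline deletion of Cebpb, the gene of the transcription factor C/EBPb, or were wildtype. Mammary epithelial cells were prepared from 2 paired sets of glands with 10 mice per group, stained for CD24, CD29 and lineage (LIN) markers, and sorted. The other 4 arrays hold the CD24hiCD29lo cells of the same genotypes and serve here to estimate the spread and to show where the CD29hi values differ. RNA was amplified before labelling and hybridised to Affymetrix mouse arrays, 1 array per sorted sample. The series asked which signalling pathways C/EBPb regulates in these stem and progenitor subpopulations. The deletion was in the germline and so not limited to the sorted cells. Strain, age and reproductive stage of the mice and the deleted part of Cebpb were not stated.

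C/EBPb is a basic leucine zipper protein that binds DNA as a dimer with itself or with other members of the C/EBP family. In the mammary gland it is known for its part in ductal growth and in the differentiation of milk-producing alveolar cells, and in many tissues it drives acute phase and inflammatory genes. The CD29hi gate is enriched for basal cells, which include the contractile myoepithelial cells and the cells with stem cell activity on transplantation, and the CD29lo gate for luminal cells.

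Values are log2 levels per probe set as deposited, 1 probe set per gene, and differences are knockout minus wildtype on that scale, given ± SE of a limma fit over all 8 arrays. Medians of the 4 CD29hi arrays lay between 5.45 and 5.58. Background, set at the 95th percentile of 27 bacterial control probe sets, lay between 3.83 and 3.94, and 69.2% to 70.9% of probe sets exceeded it. The correlation across genes was 0.964 between the knockout replicates and 0.962 between the wildtype replicates, against 0.945 to 0.962 between arrays of different genotype. All 8 basal markers were above background on all 4 arrays, and their summed linear level was 35703 and 29768 in the knockout and 32727 and 40059 in the wildtype, against 5427 to 6396 in the CD29lo arrays. Between the wildtype gates, 578 genes were higher in CD29hi (3.96%) and 618 lower (4.23%) at an adjusted p under 0.05. The 9 luminal markers were above background too, with sums of 21076 to 22188, against 37162 to 41399 in the CD29lo arrays, so the gate held luminal transcripts as well. The fibroblast marker sum did not overlap between the genotypes (4156 and 4380 in the knockout, 1704 and 3052 in the wildtype). A linear sum weighs bright genes most, here Fn1, with 10.91 and 10.19 in the knockout and 8.51 and 8.70 in the wildtype. Of the 18 markers, 10 had a difference above 0 and 8 below, so the sum does not describe the list as a whole. Endothelial and adipocyte sums were highest in knockout array 2 and lowest in knockout array 1.

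The targeted gene, Cebpb, read 8.60 and 9.38 in the knockout arrays and 11.95 and 12.25 in the wildtype arrays, with no overlap. It fell by 3.11 ± 0.274 on the log2 scale, 8.63-fold (limma adjusted p = 0.0177), and stayed above background in both knockout arrays. Whether its probe set lies in the deleted part is not known from the sources used here. Them5, which encodes a mitochondrial acyl-CoA thioesterase, was the other gene that fell: it read 1.54 and 2.19 in the knockout, under background, and 8.02 and 8.54 in the wildtype. Its level was at least 20.9-fold lower in the knockout (limma adjusted p = 0.00594). These 2 genes were all that passed the threshold of 0.05 among the 14598 genes tested (0.0137% called lower), and 0 passed in the higher direction (0%), where the smallest limma adjusted p was 0.147. The unadjusted p was under 0.05 for 1145 genes (7.84%), 689 of them lower (4.72%) and 456 higher (3.12%). Both knockout arrays lay below both wildtype arrays for 3095 genes (21.2%) and above them for 2676 (18.3%). These shares are the background for every count given for a gene group, and no gene named further on passed the adjusted threshold. The groups and their members were chosen with earlier results of these data known. A count set beside these shares thus describes a list and does not test it. The median difference of all genes was -0.02, the 5th percentile -0.97 and the 95th percentile 0.88.

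**Figure D1:**
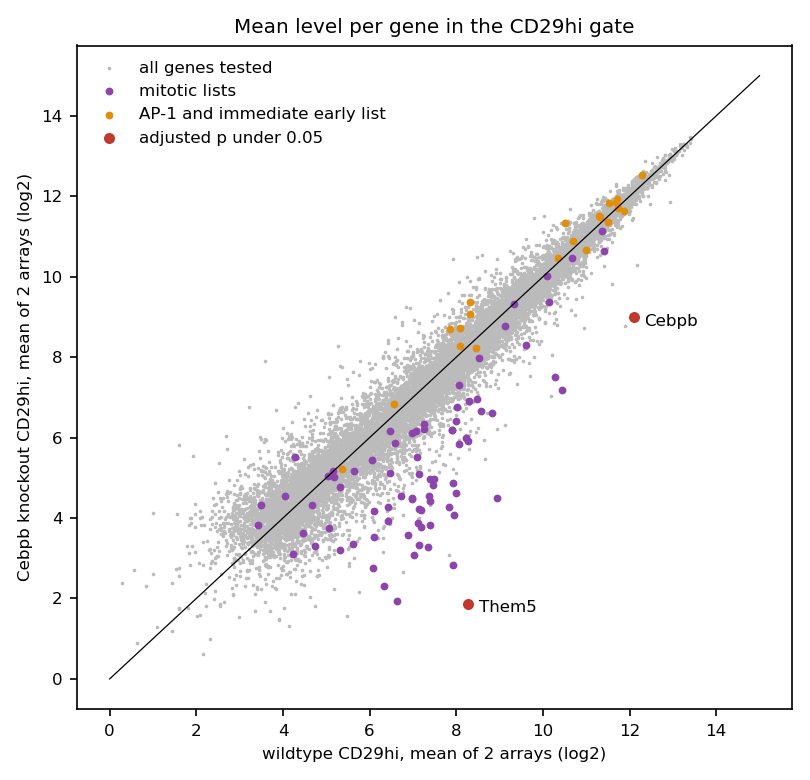
Mean log2 level of each of the 14598 genes tested in the wildtype (x axis) and the Cebpb knockout (y axis) CD29hi arrays, 2 arrays per genotype, with the line of equal level. Cebpb and Them5, the genes with an adjusted p under 0.05, lie far below the line, as do most genes of the mitotic lists, whose median difference is -1.91, while the AP-1 and immediate early genes lie near it with a median of 0.20.

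Both calls were lost when certain single arrays were left out. The Cebpb call was lost without wildtype CD29hi array 1 (limma adjusted p = 0.139) or 2 (0.52), and without wildtype CD29lo array 1 (0.0621) or 2 (0.0574). Them5 lost its call without wildtype CD29hi array 1 (limma adjusted p = 0.0635) or 2 (0.224). Taking the mean of all probe sets of a gene also ended both calls (limma adjusted p = 0.226 for Cebpb and 0.115 for Them5), and a fit with no variance trend ended that of Cebpb (0.213).

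The other C/EBP genes on the array did not pass. Cebpd, another activator of acute phase genes, read 9.46 and 9.36 in the knockout and 9.43 and 10.39 in the wildtype, with overlapping genotypes and a difference of -0.50. Cebpg, the short family member without a transactivation domain, stood at 0.25, Ddit3, the stress-induced member that dimerises with the others, at 0.11, and Cebpa at -0.03. Of the genes that neighbour Cebpb on chromosome 2, 19 were tested: their median was 0.10, 0 had an unadjusted p under 0.05 in the lower direction and 2 in the higher, Znfx1 at 1.27 and Spata2 at 0.78.

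Next to Cebpb and Them5, the lower genes with the smallest p were of a few kinds, and none passed. Plin2, which coats lipid droplets, read 10.00 and 10.60 in the knockout and 12.16 and 12.19 in the wildtype, a difference of -1.87 ± 0.242 (limma adjusted p = 0.104). Plau, the urokinase plasminogen activator, read 8.84 and 8.60 against 10.56 and 11.35 (-2.23, limma adjusted p = 0.147). Chil1, a secreted chitinase-like protein, read 6.44 and 7.62 against 9.54 and 10.84 (-3.16, limma adjusted p = 0.169). The genotypes did not overlap in any of these. Ermp1, a peptidase of the endoplasmic reticulum, stood at -1.56 and Epb41l4b, a FERM domain protein, at -1.22. Other, dimmer Epb41l4b probe sets stood at 0.09 and -0.97. Most of the other genes in this group act in mitosis: Kif20b, Kif11, Ckap2, Cenph, Tpx2 and Birc5.

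**Figure D2:**
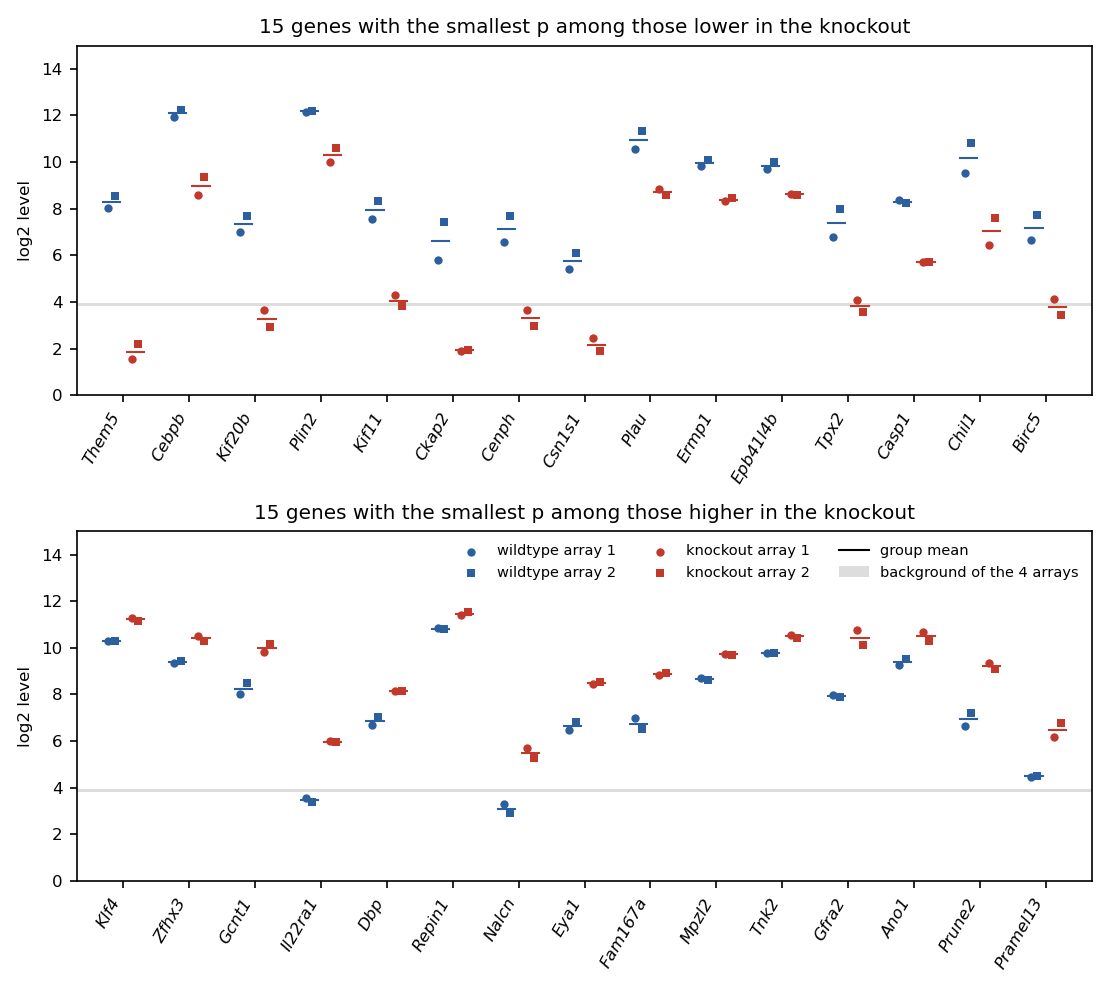
Log2 level on each CD29hi array of the 15 genes with the smallest p among those lower (top) and the 15 among those higher (bottom) in the knockout. Points are arrays, short lines the means of 2 arrays, and the grey band is the range of background. Of the lower genes, Them5, Kif20b, Ckap2, Cenph and Csn1s1 sit under background in both knockout arrays, whereas among the higher genes Il22ra1 and Nalcn sit under it in both wildtype arrays.

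Genes of mitosis formed the group with the lowest values in knockout CD29hi cells. Of the 83 genes in 4 lists, 79 were tested. Their median difference was -1.91, against -0.02 for all genes. Both knockout arrays lay below both wildtype arrays for 58 of the 79 (73.4%, against 21.2% of all genes) and above them for 2 (2.53%, against 18.3%). At an unadjusted p under 0.05, 48 were lower (60.8%, against 4.72%) and 1 was higher, and 0 passed the adjusted threshold. In 10 of them the probe set used was under background in both knockout arrays (in 6 every probe set of the gene was), so those differences depend on values below detection: with values raised to background the median was -1.72, and for the 22 genes with a mean level of at least 7 it was -1.35. In a bulk sample, fewer dividing cells and less RNA of these genes per cell cannot be told apart.

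The size of the difference moved with the wildtype array used. Centred on each gene's mean over the 4 arrays, the median of the 79 genes was -0.67 and -0.83 in the knockout arrays, 0.29 in wildtype array 1 and 1.53 in wildtype array 2. Without wildtype array 2 the median difference was -1.13 and 34 genes were lower at an unadjusted p under 0.05, and without wildtype array 1 they were -2.58 and 56. Wildtype array 2 also had the highest sum of basal markers, 40059.

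**Figure D3:**
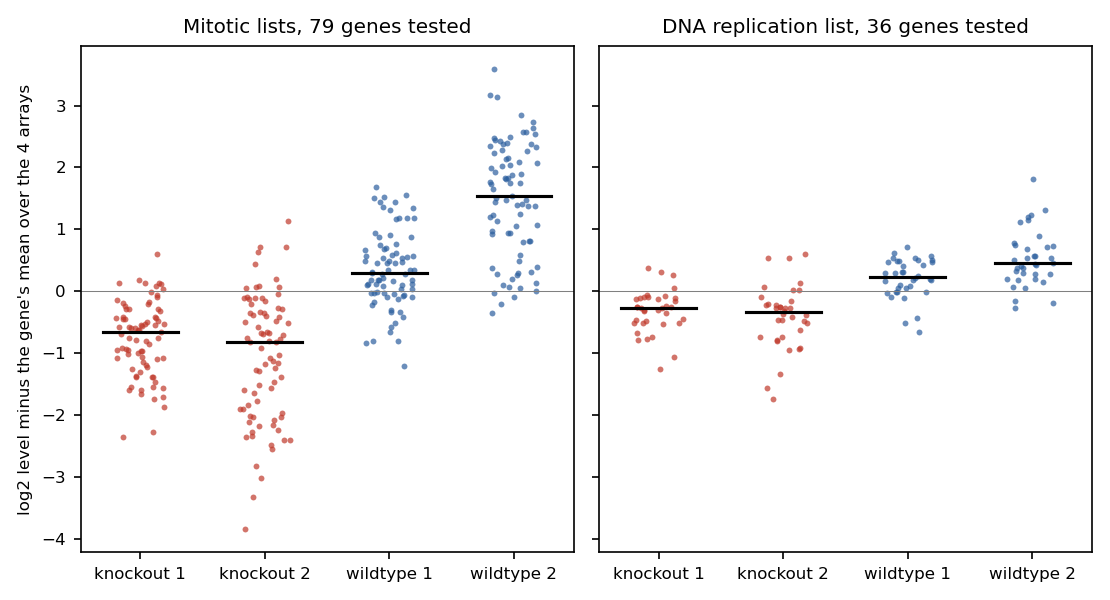
Log2 level minus the mean of the gene over the 4 CD29hi arrays (y axis) for each array, with 1 point per gene of the mitotic lists (left, 79 genes) and of the DNA replication list (right, 36 genes) and a line at the median. The mitotic medians of both knockout arrays, -0.67 and -0.83, lie under those of the wildtype arrays, and wildtype array 2 at 1.53 stands above wildtype array 1 at 0.29.

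The kinesins and spindle proteins held the smallest p. Kif20b, a kinesin needed to finish cytokinesis, read 3.65 and 2.91 in the knockout and 6.99 and 7.69 in the wildtype, a difference of -4.06 (limma adjusted p = 0.0714). These knockout values lay under background, but another of its probe sets exceeded it in knockout array 1, at 4.06. Kif11, the motor that pushes the spindle poles apart, read 4.29 and 3.84 against 7.56 and 8.34, a difference of -3.88 ± 0.502 (limma adjusted p = 0.104). Neither gene's genotypes overlapped. Tpx2, which nucleates spindle microtubules and activates Aurora A kinase, read 4.07 and 3.59 against 6.78 and 8.01 (-3.56, limma adjusted p = 0.169). Ckap2, a spindle microtubule protein, was at least 6.63-fold lower. Kif11 and Tpx2 lay under the background of 3.94 in knockout array 2, so their differences have no exact size. Kif22, a chromosome-arm motor, stood at -5.10. Its knockout values, 3.10 and 2.56, lay under background, so this difference has no exact size either. In knockout array 1, 1 of its other probe sets was above background (3.96). Of the 26 spindle genes tested, 17 were lower at an unadjusted p under 0.05 and 0 higher, with a median of -2.23.

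Centromere and kinetochore genes had a median of -2.41, and 16 of 23 were lower at an unadjusted p under 0.05. Cenph, a protein of the inner kinetochore, read 3.67 and 2.99 in the knockout, under background, and 6.58 and 7.68 in the wildtype, at least 9.42-fold lower (limma adjusted p = 0.104). Birc5 (survivin) and Cdca8 (borealin), which hold Aurora B kinase at the centromere, stood at -3.41 and -2.77. Cdca8 was well above background in every array, with 7.51 and 7.50 in the knockout and 9.63 and 10.91 in the wildtype. Sgo1, the protector of centromeric cohesion, stood at -3.94 and Knl1, the outer kinetochore scaffold, at -3.00. In knockout array 2, Birc5 (3.46), Sgo1 (2.03) and Knl1 (3.79) lay under its background of 3.94. The differences of these genes thus have no exact size. Another Sgo1 probe set overlapped, with 4.91 and 4.08 in the knockout and 4.83 and 3.90 in the wildtype (0.13).

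Checkpoint and exit genes were mixed in size. Mki67, the gene of the proliferation antigen Ki-67, read 7.74 and 6.63 in the knockout and 9.69 and 11.20 in the wildtype, a difference of -3.26 ± 0.63 (limma adjusted p = 0.264). Top2a, the topoisomerase of dividing cells, read 6.12 and 2.86 against 8.02 and 9.84 (-4.44, limma adjusted p = 0.305). The 2.86 of knockout array 2 lay under its background of 3.94, so this difference has no exact size. Its probe sets disagreed: dimmer ones, above background in every CD29hi array, stood at 0.67 and 0.48. Smc4, a condensin subunit, had a small but even difference, with 10.60 and 10.68 in the knockout and 11.30 and 11.51 in the wildtype (-0.77). Of the 21 genes, 13 were lower at an unadjusted p under 0.05. Bub1b, a checkpoint kinase, was the 1 mitotic gene higher at an unadjusted p under 0.05 (1.23), and is named after its values were seen. It read 5.50 and 5.52 in the knockout and 3.69, under background, and 4.86 in the wildtype. Its partner Bub1 stood at -3.30, with knockout array 2 under background (2.68). Of the 9 genes of mitotic entry, 2 were lower at an unadjusted p under 0.05: Cdk1, the kinase that starts mitosis, at -3.04, and its partner cyclin Ccnb2 at -1.72. The median there was -0.57.

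Many mitotic genes share promoter elements, a CCAAT box and the cell cycle homology region (CHR), which bind the activator NF-Y and the repressive DREAM complex. The 250 bases upstream of the start in RefSeq (GRCm38.p6) were searched on both strands for CCAAT and TTTGAA, and 67 of the 79 genes tested had 75 starts listed there. CCAAT was held by 68% of these promoters, against 33.8% of all 32851, and TTTGAA by 37.3%, against 16%. No test was made of these shares. Kif11 (chr19:37376132-37376381, plus strand) and Mki67 (chr7:135716380-135716629, minus strand) are shown as mitotic genes that hold both, with capitals for CCAAT and TTTGAA or their complements.
Kif11: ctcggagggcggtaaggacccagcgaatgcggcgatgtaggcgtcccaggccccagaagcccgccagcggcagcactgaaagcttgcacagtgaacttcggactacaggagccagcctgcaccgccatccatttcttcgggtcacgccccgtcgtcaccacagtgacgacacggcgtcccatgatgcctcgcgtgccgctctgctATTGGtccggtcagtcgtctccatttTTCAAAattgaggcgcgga
Mki67: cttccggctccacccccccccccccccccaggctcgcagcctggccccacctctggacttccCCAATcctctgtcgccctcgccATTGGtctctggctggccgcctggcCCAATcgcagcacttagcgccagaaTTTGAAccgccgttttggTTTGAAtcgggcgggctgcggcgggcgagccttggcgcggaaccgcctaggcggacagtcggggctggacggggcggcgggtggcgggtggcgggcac

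Replication genes were lower by a smaller amount. Of the 36 DNA replication genes tested, both knockout arrays lay below both wildtype arrays for 26 (72.2%, against 21.2% of all genes) and above them for 0. The median was -0.65, and 11 were lower and 0 higher at an unadjusted p under 0.05. Mcm6, a subunit of the replicative helicase, read 9.89 and 9.92 in the knockout and 10.53 and 10.61 in the wildtype (-0.66 ± 0.153, limma adjusted p = 0.307). Lig1, which joins Okazaki fragments, stood at -2.27, the helicase subunit Mcm5 at -1.83 and Pola1, the catalytic subunit of DNA polymerase alpha, at -1.21. The count of 11 was 5 without knockout array 2 and 4 without wildtype array 2, while the median kept to -0.82 to -0.55 when any 1 array was left out. Among the G1 genes the picture was uneven. Ccnd1, cyclin D1, was higher in the knockout at 11.36 and 11.03 against 10.51 and 10.13 (0.87, limma adjusted p = 0.297), while the inhibitors Cdkn1c and Cdkn2c stood at -2.53 and -1.24 and the transcription factor Mycn at -1.31. In Cdkn1c, knockout array 1 lay under background (2.81). Of 26 G1 genes, 4 were lower (15.4%) and 1 higher (3.85%) at an unadjusted p under 0.05, beside 4.72% and 3.12% of all genes.

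Genes of luminal progenitors and alveolar cells were lower in basal-gate cells of the knockout. Of 19 tested, 10 had both knockout arrays below both wildtype arrays (52.6%, against 21.2%) and 1 above (5.26%, against 18.3%). Their median was -0.69, with 7 lower and 0 higher at an unadjusted p under 0.05. Elf5, the transcription factor of alveolar fate, read 3.99 and 6.94 in the knockout and 9.14 and 8.17 in the wildtype (-3.19 ± 0.858, limma adjusted p = 0.366). Atp6v1c2, a subunit of the proton pump, read 4.12 and 3.87 against 7.12 and 7.18 (-3.15, limma adjusted p = 0.264). The 3.87 of knockout array 2 lay just under its background of 3.94. The genotypes did not overlap in either gene, but knockout array 1 stood well below knockout array 2 for Elf5. The same held for the list: centred medians were -1.01 and 0.03 in the knockout and 0.38 and 0.51 in the wildtype. Without knockout array 1 the median was -0.24 and 3 genes were lower at an unadjusted p under 0.05, and without knockout array 2 they were -1.34 and 9. Without wildtype array 1 or 2 the count was 4. The summed linear level of the 19 genes was 8468 and 12622 in the knockout and 12734 and 13872 in the wildtype, while the 9 luminal markers summed to similar values in all 4 arrays. That second sum is set mostly by Krt8, Krt18, Cd24a and Epcam, at 11.62 to 12.72 in these arrays. Elf5, of the same 9, adds little to it. The share of luminal cells was not measured.

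The caseins, the main proteins of milk, were the lowest of the milk protein list. Csn1s1 (alpha-S1 casein) read 2.45 and 1.89 in the knockout, under background, and 5.43 and 6.10 in the wildtype, at least 3.66-fold lower (limma adjusted p = 0.104). Csn2 (beta casein) was under background in both knockout arrays as well, at 2.10 and 1.03, against 5.05 and 5.91, at least 3-fold lower (limma adjusted p = 0.251). Csn1s2a was at least 15.4-fold lower (limma adjusted p = 0.307). Csn3 (kappa casein), the brightest, read 7.33 and 8.69 against 9.36 and 10.25 (-1.79, limma adjusted p = 0.307). None of these 4 caseins overlapped between the genotypes in the probe set used. Another, dimmer Csn3 probe set went the other way, with 5.38 and 5.53 in the knockout and 4.43 and 5.04 in the wildtype (0.72). Another Csn2 probe set overlapped, with 2.41 and 2.40 against 1.81 and 5.74. Of the other milk genes, Muc15, a mucin of the milk fat globule, stood at -1.31, Xdh at -0.72 and Wfdc18 at -0.68, while Wap, the whey acidic protein, stood at -0.02 and Lalba, alpha-lactalbumin, at -0.20. These 5 were chosen after their values were seen. Of 13 genes, 5 were lower and 0 higher at an unadjusted p under 0.05 and the median was -0.68, but -0.02 without knockout array 1. Prolactin acts on casein genes through STAT5, whose sites have the letters TTCNNNGAA. Of 8 milk protein promoters available, 3 held these letters, against 7.02% of all promoters. The 250 bases upstream of Csn1s1 (chr5:87665958-87666207, plus strand) show 1 such match in capitals.
Csn1s1: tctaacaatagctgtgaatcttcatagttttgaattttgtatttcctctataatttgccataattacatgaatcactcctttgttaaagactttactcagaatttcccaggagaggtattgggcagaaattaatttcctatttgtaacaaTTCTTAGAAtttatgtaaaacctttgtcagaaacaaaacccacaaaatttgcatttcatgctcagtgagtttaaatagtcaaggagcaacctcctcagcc

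Secreted defence proteins included some of the brightest of the lower genes. Slpi, an inhibitor of leukocyte proteases, read 8.90 and 8.65 in the knockout and 12.00 and 11.81 in the wildtype, a difference of -3.13 ± 0.513 (limma adjusted p = 0.169). Its replicates were close, and in a fit on the 4 CD29hi arrays alone it passed (limma adjusted p = 0.00833). Ltf, the iron-binding lactoferrin, read 6.95 and 8.13 against 9.95 and 9.44 (-2.15, limma adjusted p = 0.169). Lcn2, which binds bacterial siderophores, read 8.57 and 8.28 against 9.46 and 10.10 (-1.36, limma adjusted p = 0.251). Casp1, the protease that matures interleukin 1 beta, read 5.71 and 5.73 against 8.36 and 8.23 (-2.57, limma adjusted p = 0.169). In none of these 4 genes did the genotypes overlap. The serum amyloid gene Saa1 stood at -2.13 and haptoglobin, Hp, at -0.86, whereas Csf3, the granulocyte growth factor, was higher, at 6.31 and 5.46 in the knockout and under background at 3.42 and 3.70 in the wildtype (at least 3.99-fold). These last 3 genes were named after their values were seen. Over the 21 genes tested, 6 were lower and 1 higher at an unadjusted p under 0.05. The median was -0.01, beside -0.02 for all genes, but -0.64 without knockout array 2 and 0.50 without knockout array 1, and it was -0.82 for the 8 genes with a mean level of at least 7.

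C/EBP factors bind sites of the form TTGCNNAA. Of 16 promoters of this list in the table, 10 held the letters on either strand (62.5%), against 9.56% of all 32851 promoters, which is a description of the list and not of its response. Slpi (chr2:164356508-164356757, minus strand), Ltf (chr9:111019042-111019291, plus strand) and Lcn2 (chr2:32387740-32387989, minus strand) are printed as genes of the list with the match in capitals, which begins at position -241, -75 and -216 from the start. The letters were found in 0 of the 13 promoters that could be matched among the 15 lower genes with the smallest p, and in 0 of 12 among the higher ones.
Slpi: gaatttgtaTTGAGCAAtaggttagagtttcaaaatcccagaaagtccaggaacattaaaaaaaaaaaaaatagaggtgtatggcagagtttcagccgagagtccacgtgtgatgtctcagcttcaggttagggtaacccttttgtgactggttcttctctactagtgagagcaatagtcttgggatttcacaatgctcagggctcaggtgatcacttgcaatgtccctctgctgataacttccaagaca
Ltf: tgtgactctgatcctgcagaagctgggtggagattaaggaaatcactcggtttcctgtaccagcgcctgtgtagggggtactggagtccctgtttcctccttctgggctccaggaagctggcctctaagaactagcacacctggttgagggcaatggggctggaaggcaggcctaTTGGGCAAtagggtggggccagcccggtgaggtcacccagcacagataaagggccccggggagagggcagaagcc
Lcn2: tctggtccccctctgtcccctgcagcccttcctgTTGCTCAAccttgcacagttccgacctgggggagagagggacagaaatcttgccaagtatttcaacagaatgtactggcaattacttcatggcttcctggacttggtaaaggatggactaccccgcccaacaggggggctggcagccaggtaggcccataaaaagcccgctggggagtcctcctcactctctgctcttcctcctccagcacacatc

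Them5, the gene with the smallest p, lies on chromosome 3. Its upstream 250 bases (chr3:94341849-94342098, plus strand) held 0 matches to any of the 4 motifs searched and are shown since the gene passed the test.
Them5: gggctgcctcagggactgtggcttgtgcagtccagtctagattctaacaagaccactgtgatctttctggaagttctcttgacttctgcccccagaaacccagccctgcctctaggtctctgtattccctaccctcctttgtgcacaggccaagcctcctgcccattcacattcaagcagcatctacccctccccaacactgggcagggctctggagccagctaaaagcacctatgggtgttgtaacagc

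Apart from Them5, Plin2 and Acsl4, the genes of the lipid list differed little. Acsl4, which activates long-chain fatty acids, read 9.23 and 9.73 in the knockout and 10.30 and 10.81 in the wildtype (-1.08, limma adjusted p = 0.308). Its other probe sets stood at -1.78 and -1.56. Elovl5, an elongase of polyunsaturated fatty acids, stood on the other side, at 11.76 and 11.96 against 11.33 and 11.37 (0.51). Of the 29 genes of the list, 3 were lower (10.3%) and 1 higher (3.45%) at an unadjusted p under 0.05, beside 4.72% and 3.12% of all genes. The median was -0.07. Lipid genes outside the list were not counted. Among them Fabp5 stood at -1.78, Idi1 at -1.38 and Fdft1 at -0.98, named after their values were seen.

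Genes of the respiratory chain had small differences on 1 side. Of 25 tested, 23 were below 0 (51.6% of all genes were), and both knockout arrays lay below both wildtype arrays for 16 (64%, against 21.2%). The median was -0.23. Ndufa9, a subunit of complex I, read 9.49 and 9.46 in the knockout and 10.17 and 10.12 in the wildtype (-0.67, limma adjusted p = 0.398), and Cox4i1, of complex IV, read 11.16 in both knockout arrays and 11.50 and 11.60 in the wildtype (-0.39, limma adjusted p = 0.434). The unadjusted p was under 0.05 for 7 lower and 0 higher genes, a count of 3 without knockout array 2 and 2 without wildtype array 2. The median was -0.38 without wildtype array 1.

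Among the signalling lists, the Notch pathway held the most genes with an unadjusted p under 0.05. Notch receptors are cut on ligand binding and their intracellular part then drives Hes and Hey genes. Notch1 read 9.25 and 9.69 in the knockout and 10.31 and 10.45 in the wildtype (-0.91 ± 0.231, limma adjusted p = 0.321). Notch2 read 11.03 and 10.87 against 11.55 and 11.40 (-0.53, limma adjusted p = 0.307). Lfng, the glycosyltransferase that modifies Notch receptors, stood at -1.52. Genotypes did not overlap for these 3 genes in the probe set used. Another probe set of Notch1 did not overlap either (-1.16), but others of Notch2 (-0.25) and Lfng (-0.10) did. Of the Hes and Hey genes, Hes6, which counteracts Hes1, read 6.29 and 6.91 against 8.22 and 9.21 (-2.11, limma adjusted p = 0.264). Another Hes6 probe set stood at -0.47 with overlapping genotypes. Hey1 read 8.53 and 9.84 against 10.65 and 10.66 (-1.47, limma adjusted p = 0.487). Over the 24 genes, 6 were lower (25%) and 0 higher at an unadjusted p under 0.05, beside 4.72% and 3.12% of all genes, but the median was 0.01 and 12 lay on each side of 0.

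Other pathways showed single genes. In the EGF family Erbb3, a receptor that pairs with ERBB2, read 7.78 and 7.93 in the knockout and 8.64 and 8.72 in the wildtype (-0.83, limma adjusted p = 0.307), and for the ligand Btc its probe sets disagreed: the one used read 2.67 and 3.35 in the knockout and 4.95 and 6.32 in the wildtype (limma adjusted p = 0.309), and the other 4.48 and 4.42 against 4.54 and 3.99 (0.19). In the Wnt pathway the ligand Wnt5b stood at -0.96, the receptor Fzd1 at -0.95 and the secreted Dkk3 at -1.53, while Wnt7b was higher and under background in the wildtype (at least 1.92-fold). Another Fzd1 probe set overlapped between genotypes (-0.14). In the TGF-beta pathway the ligand Tgfb2 read 10.48 and 10.57 against 9.58 and 9.82 (0.82, limma adjusted p = 0.487), the inhibitor Smad7 stood at 0.75 and the activin subunit Inhbb at -1.22. Ptch1, the Hedgehog receptor and target, read 10.22 and 10.13 against 10.75 and 10.71 (-0.55, limma adjusted p = 0.424). At an unadjusted p under 0.05 the lower and higher counts were 4 and 1 of 33 Wnt genes, 1 and 3 of 28 TGF-beta genes, 2 and 0 of 12 EGF family genes and 1 and 0 of 11 Hedgehog genes. Of all genes, 4.72% were lower and 3.12% higher at that threshold. The medians of these lists ran from -0.11 in the Hedgehog list to 0.36 in the EGF list. In the prolactin and STAT5 list, Elf5 was the 1 gene of 10 with an unadjusted p under 0.05, and the feedback inhibitor Socs2 stood at 0.60.

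**Figure D4:**
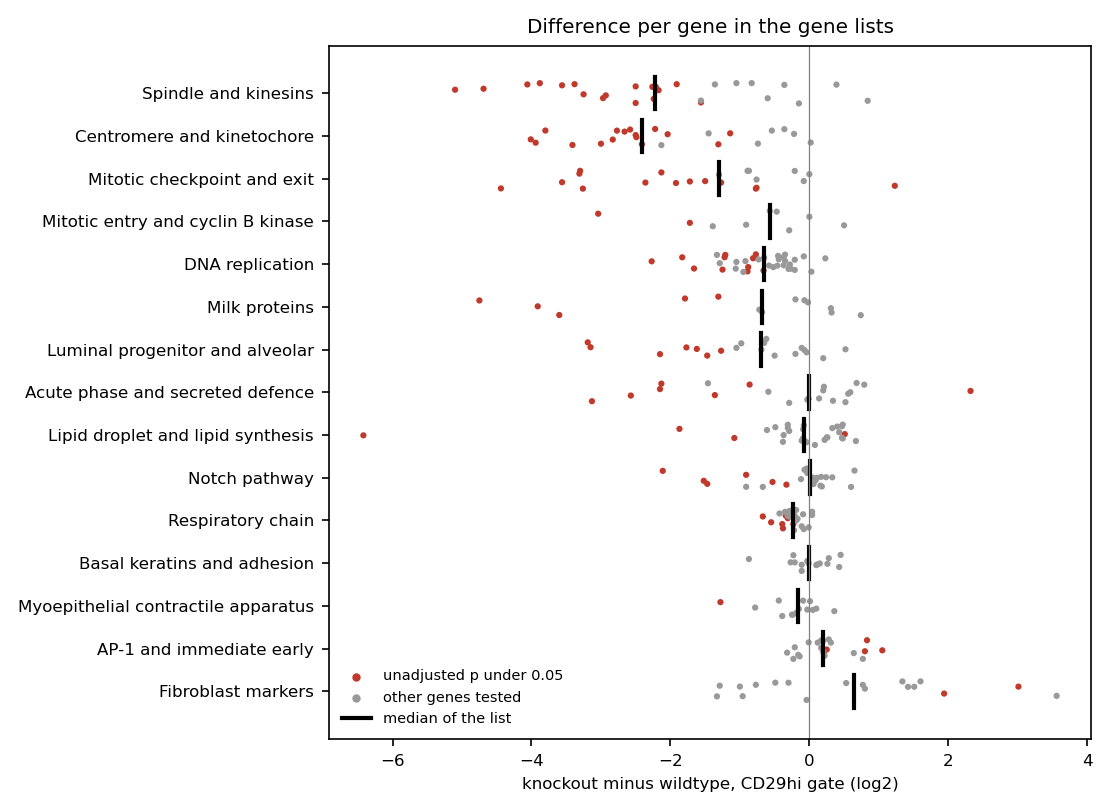
Difference between knockout and wildtype in the CD29hi gate (x axis, log2) for each gene tested in 15 lists (y axis), with points in red at an unadjusted p under 0.05 and a bar at the median. The spindle and centromere lists have medians of -2.23 and -2.41, whereas the basal keratin and myoepithelial lists lie at -0.01 and -0.17.

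Basal identity genes did not pass and had medians near 0. The keratins Krt5 (12.63 and 12.39 in the knockout, 12.56 and 12.68 in the wildtype) and Krt14 (12.44 and 12.33 against 12.42 and 12.36) overlapped between genotypes. The basal transcription factor Trp63 read 11.30 and 10.80 against 11.36 and 11.94 (-0.60). Of 15 basal keratin and adhesion genes, 0 had an unadjusted p under 0.05 and the median was -0.01. In the contractile apparatus Actg2, a smooth muscle actin, read 8.91 and 7.96 against 9.18 and 10.24 (-1.28, limma adjusted p = 0.629), and Acta2 stood at -0.39. Of 14 such genes, 1 was lower at an unadjusted p under 0.05 and the median was -0.17. Among basal transcription factors Tcf4 was higher at 11.10 and 10.72 against 9.92 and 10.24 (0.83, limma adjusted p = 0.479). In the basement membrane list, 8 of 16 genes had both knockout arrays above both wildtype arrays (50%, against 18.3%), but 0 of them had an unadjusted p under 0.05, and the laminin chain Lama4 stood at -1.85. Another Lama4 probe set stood at -0.30.

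Luminal keratins were close between genotypes with 1 exception. Krt7 read 9.30 and 8.90 in the knockout and 9.99 and 10.31 in the wildtype (-1.05 ± 0.19, limma adjusted p = 0.251), while Krt8 and Krt18, the general luminal keratins, stood at -0.17 and -0.02. Of 18 luminal keratin and junction genes, 1 had an unadjusted p under 0.05 and the median was -0.05. Among the genes of hormone-sensing luminal cells, the oestrogen receptor Esr1 read 7.78 and 8.69 against 7.70 and 6.98 (0.89, limma adjusted p = 0.617), and its cofactor Foxa1 stood at 0.96. These were the 2 of 10 with an unadjusted p under 0.05, both on the higher side.

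Higher genes did not pass, and the ones with the smallest p belonged to no single group. Klf4, a zinc finger factor of epithelial differentiation, read 11.28 and 11.17 in the knockout and 10.31 and 10.28 in the wildtype, a difference of 0.93 ± 0.138 (limma adjusted p = 0.147). Zfhx3, a homeodomain factor, read 10.51 and 10.30 against 9.36 and 9.42 (1.02, limma adjusted p = 0.169). Gcnt1, an enzyme that branches mucin-type glycans, read 9.81 and 10.17 against 8.0 and 8.49 (1.75, limma adjusted p = 0.169). Replicates of these genes lay close together and the genotypes were apart. Il22ra1, a subunit of the interleukin 22 receptor, was at least 4.23-fold higher and Nalcn, a sodium leak channel, at least 3-fold. Dbp, a circadian transcription factor, stood at 1.29, Eya1, a developmental coactivator, at 1.82, Mpzl2, an adhesion protein, at 1.04, Gfra2, a neurturin receptor, at 2.50 and Ano1, a chloride channel, at 1.10. Other Gfra2 probe sets stood at 3.55, 0.20, 2.94 and 2.59. Among genes without overlap and with a mean of at least 7 in either genotype, Ildr2 had the largest difference. It read 7.92 and 7.89 in the knockout and 4.36 and 2.80 in the wildtype (4.32, limma adjusted p = 0.321). It met that minimum through the knockout only, and wildtype array 2 lay under its background of 3.94. Its other probe sets stood at 2.88 and 2.21.

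Immediate early genes leaned higher. Of 21 tested, 12 had both knockout arrays above both wildtype arrays (57.1%, against 18.3% of all genes) and 3 below. At an unadjusted p under 0.05, 5 were higher and 0 lower, a count of 1 without knockout array 2 and 3 without wildtype array 2, and the median was 0.20. Atf3, a stress-induced repressor, read 11.18 and 11.47 in the knockout and 10.86 and 10.18 in the wildtype (0.80, limma adjusted p = 0.366). Fosb stood at 0.83, the orphan receptor Nr4a2 at 1.05 and Jun at 0.25. Genes of this kind are also known to respond to tissue dissociation. In the unfolded protein response 15 of 18 genes lay above 0 (48.1% of all genes did), with a median of 0.21, and Herpud1, of the degradation machinery of the endoplasmic reticulum, read 10.69 and 10.08 against 9.05 and 9.65 (1.04, limma adjusted p = 0.617).

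Col6a1 and Fmod were among the 10 largest differences on the higher side. Col6a1, a collagen VI chain, read 8.33 and 8.24 in the knockout and 4.53 and 6.02 in the wildtype (3.01, limma adjusted p = 0.615). Fmod, a proteoglycan that binds collagen, read 7.95 and 7.08 against 4.30 and 5.81 (2.46, limma adjusted p = 0.305). Fn1, fibronectin, of the fibroblast marker list, read 10.91 and 10.19 against 8.51 and 8.70 (1.94, limma adjusted p = 0.632). Genotypes did not overlap in these genes in the probe set used, but the wildtype arrays differed widely for Col6a1 and Fmod. Another, dimmer Fn1 probe set overlapped, with 5.49 and 4.06 in the knockout and 5.33 and 4.04 in the wildtype (0.09). The fibroblast marker list had a median of 0.65, with 7 of 18 genes above in both knockout arrays (38.9%, against 18.3%) and 3 below. The sign of that median depended on single arrays: it was -0.66 without knockout array 2 and 1.57 without knockout array 1. Its members differed in sign: Dcn, a fibroblast proteoglycan, stood at 1.34, Serpinf1 read 7.41 and 8.43 against 9.03 and 9.48, and Pi16 was not above background in any CD29hi array. Of the 18 markers 11 were above background in all 4 arrays. Blood cell markers had a median of 0.49 with 0 of 11 at an unadjusted p under 0.05, and Cd3e, Cd3g, Cd4, Itgam and Hba-a1 were not above background. Another red cell gene, the alpha globin Hba-a2, which was not in the list and was chosen after its values were seen, read 11.27 and 11.46 in the knockout and 11.65 and 11.83 in the wildtype. The adipocyte gene Car3 read 10.09 in knockout array 2 and 5.11 to 5.54 in the other 3 arrays. The part of other cell types in these results was not tested.

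The CD29lo arrays served to test whether these differences varied with the gate. The difference between the gates was tested for every gene, and 0 of 14598 passed (0% in each direction; smallest limma adjusted p = 0.95). In all, 722 genes had an unadjusted p under 0.05 for a difference between the gates (4.95%). For Cebpb the values were close, -3.11 in CD29hi and -2.94 in CD29lo. Them5 stood at -6.42 in CD29hi and at -2.60 in CD29lo, where wildtype levels were lower (5.54 and 5.34). Its knockout values in CD29hi lay under background, and with values raised to background its CD29hi difference was -4.38. The difference of Them5 between gates thus has no exact size, and it did not pass (limma adjusted p = 0.95). The mitotic genes had a median of -1.91 in CD29hi and -0.34 in CD29lo, where 8 of the 79 were lower and 1 higher at an unadjusted p under 0.05, beside 4.26% and 2.42% of all genes. Of the 79, 23 had an unadjusted interaction p under 0.05 with a lower value in CD29hi, against 2.46% of all genes, and 0 with a higher one, against 2.49%. Kif11 stood at -3.88 and -0.88, Tpx2 at -3.56 and 0.19, and Cdk1 at -3.04 and 1.27. These 3 had small unadjusted interaction p in limma (0.0026, 0.00118 and 0.00176). For Cdca8 and Ccnb2, which stood at -2.77 and -1.72 in CD29hi, it was 0.119 and 0.721.

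In other groups some genes had low values in both gates and some in 1 of them. The casein Csn1s1 stood at -3.60 in CD29hi and -5.45 in CD29lo, Csn2 at -3.91 and -4.88, and Slpi at -3.13 and -4.70. In CD29hi the knockout lay under background for both caseins, so their differences there have no exact size. Ltf stood at -2.15 in CD29hi and -0.32 in CD29lo, Elf5 at -3.19 and 0.12, and Plin2 at -1.87 and -0.61. Genes with opposite signs had the smallest interaction p beside Them5: the carnitine transporter Slc22a5 stood at -2.09 and 0.52, Tctn1, of the ciliary transition zone, at -1.68 and 0.97, Col13a1 at 1.81 and -2.57, and Sncg, gamma-synuclein, at 1.92 and -1.50. None of these gate differences passed the adjusted test.

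**Figure D5:**
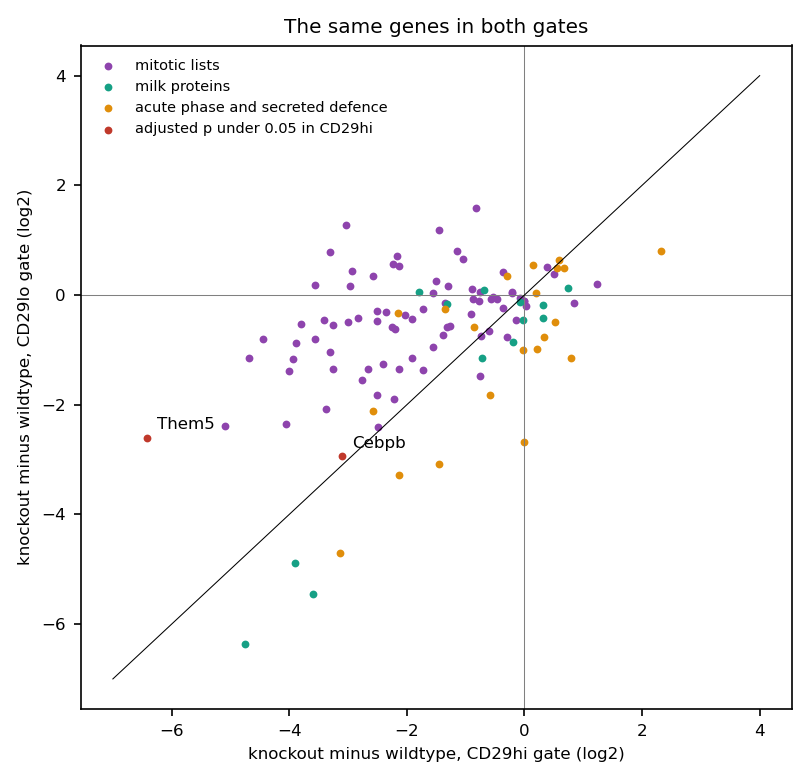
Difference between knockout and wildtype in the CD29hi gate (x axis) and in the CD29lo gate (y axis), both log2, for the genes of 3 groups and for Cebpb and Them5, with lines at 0 and a line of equal difference. The mitotic genes spread to the left with CD29lo values near 0 (medians -1.91 and -0.34), while Cebpb lies on the line and Slpi and the caseins Csn1s1, Csn2 and Csn1s2a lie low in both gates.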

How the data were processed

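Levels of 45101 probe sets were measured on 8 Affymetrix arrays, 2 per group, and 1 table of them was used. The deposited values are on a log2 scale, floored at 0, as read from the values themselves; the method of summary and scaling is not given in the sources used here. Per the labels' protocols, RNA was isolated with a PicoPure kit and amplified with a NuGEN kit. Nothing was normalized further, and the number of arrays limits the precision. The labels call the arrays biological replicates; which mice each holds is not given, so p-values measure the spread between arrays.

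Gene names came from the platform annotation. Of the probe sets 34958 carried 1 gene, 932 several and 9211 none, and 34754 matched a RefSeq gene ID. Each of 18194 genes was represented by the brightest of its probe sets, on average over all arrays, and genes under the 25th percentile of probe set means (3.51) were left out, leaving 14598.

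Limma 3.58.1 in R 4.3.3 fitted the 4 groups (lmFit, eBayes with a variance trend, 4 residual and 4.31 prior degrees of freedom), with two-sided contrasts and Benjamini-Hochberg adjustment over all genes at 0.05. A fold is a bound ("at least") against the background of each array where neither array of 1 group exceeded it.

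The 36 lists (673 genes, 641 measured, 603 tested) and the members were chosen with earlier results of these data known. Lists are described by counts and medians, with no set test. Named genes were Cebpb, genes past the threshold, the 15 smallest p in each direction, the 10 largest differences in each direction among genes without overlap and with a group mean of at least 7, up to 4 per list, and the 5 smallest interaction p per direction, of which some are given. Promoters came from RefSeq (GRCm38.p6). Scripts used Python 3.11.15 and matplotlib 3.10.9.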

Additional observations from a re-analysis of the deposited data

How the results depend on the processing

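Over 19 alternatives, 3309 of 3325 values of the 177 named genes kept their direction, 7 gained and 9 lost the call, and 16 values without a call turned sign. The median of all genes stayed between -0.04 and 0.01. The count of genes called lower, 2 in the main fit, was 1 with a filter at the 50th percentile, which left Them5 untested. It was 0 with the mean of probe sets and 1 without a variance trend. With no filter it was 3, which added Wif1 (-7.40, limma adjusted p = 0.00989). Array weights gave 3, adding Kif20b (limma adjusted p = 0.049), and values raised to background gave 4, adding Kif20b and Slpi. With only the 4 CD29hi arrays 3 genes were called lower, Slpi among them. In that fit 1 gene was called higher, Serpinb6b at 1.67 (limma adjusted p = 0.0419), named after its value was seen. Leaving out 1 array gave 0 to 3 genes called lower, 0 higher and 0 in the gate difference. Between the wildtype gates 1196 genes were called, 1945 with every probe set tested and 785 without a trend, and 512 to 1383 when 1 array was left out.

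Leaving out 1 array moved list medians to between -2.58 and -1.13 for the mitotic genes, -0.82 and -0.55 for DNA replication, -1.34 and -0.24 for luminal progenitor genes, -0.78 and -0.02 for milk proteins, -0.66 and 1.57 for fibroblast markers, -0.64 and 0.50 for acute phase genes, 0.18 and 0.24 for AP-1 genes and -0.38 and -0.16 for the respiratory chain. With the replicate block 3 genes were called lower, Plin2 among them (limma adjusted p = 0.0103). Deviations of same-numbered arrays correlated at 0.00563 in CD29hi and 0.321 in CD29lo. The labels do not tie a number to a set of glands and there are 2 pairs, so the numbers were not taken as pairs. With 2 arrays per genotype an array left out leaves 1, whose spread is then borrowed from the other groups, and many mitotic and casein values in the knockout lay under background, where differences have no exact size.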

Other observations

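Some lists fit no comparison above and are given as values for the CD29hi gate. Of 18 interferon response genes tested, 0 had an unadjusted p under 0.05 in either direction in limma and the median difference was -0.32, with the sensor Ifih1 at -0.84, the immunoproteasome subunit Psmb8 at -1.03 and the signalling factor Irf9 at 0.66. Of 13 genes of the IGF axis 0 had such a p and the median was 0.13, with Igf1 at 1.16 and its binding protein Igfbp3, which read 11.12 and 11.28 in the knockout and 11.69 and 11.87 in the wildtype, at -0.58. Among 12 Kruppel-like factors Klf4 was the 1 gene with an unadjusted p under 0.05, and Klf10 stood at -0.33, Klf3 at 0.27 and Klf6 at 0.20.

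Among markers of other cell types, the endothelial list had a median of -0.18 over 14 genes, with Plvap at 2.17 and Pecam1 at -0.46, and the pericyte list a median of 0.03 over 6. The adipocyte median was 0.19 over 6 genes, with Lep and Adipoq under background in both wildtype arrays. Leaving out 1 array moved the medians to between -1.14 and 0.54 for the endothelial list and -0.17 and 0.89 for the adipocyte list. In the Schwann and muscle list the median was 0.43 over 5 genes, and the myelin gene Mbp read 9.31 and 9.47 in the knockout and 8.89 and 9.02 in the wildtype.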
